A study of Mus musculus with 8 samples.

Results

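Dendritic cells (DCs) grown from mouse bone marrow were exposed to [BF/S+L/Ep], the butanol-soluble material extracted from stems and leaves of *Echinacea purpurea*, and were compared here between 12 h and 4 h of exposure. The arrays were chosen by their titles: 2 arrays of cells treated for 12 h were set against 2 arrays of cells treated for 4 h, 4 of the 8 arrays of the series. The other 4 arrays were of cells given the vehicle for 4 h or 12 h, 2 at each time. All cultures, vehicle-treated ones included, contained DMSO at 0.1% as the solvent, and the treated ones held 75 μg/mL of the extract.

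The marrow donors were female BALB/c mice. Marrow cells were grown for 9 days in medium with GM-CSF (200 U/mL in the sample labels, another dose in the study's methods), and the non-adherent cells of day 9 were taken as immature DCs, without sorting. RNA was read on Affymetrix arrays of the whole mouse genome, and the values are MAS5 signals, the intensity summary of a probe set on a linear scale. The study describes the replicates as biological, but the sample labels do not say which arrays came from separate mice or cultures, so the p-values measure the spread between these arrays, part of which may be technical. In such bulk samples, fewer cells of a type and less RNA per cell cannot be told apart. Untreated cells at 0 h were not analysed here, so every difference is between 12 h and 4 h.

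DCs are sentinel cells that take up antigen in tissues, sense microbes and damage through Toll-like and lectin receptors, and then carry antigen to lymph nodes to prime T cells. During maturation they raise cytokines, chemokines, costimulatory ligands and the receptor CCR7 through NF-κB, and they lower antigen uptake. Cultures grown from marrow with GM-CSF hold DCs together with macrophage-like cells, and part of the culture still divides. Cells also adjust cholesterol synthesis over hours, through SREBP-2, which switches the pathway on when sterol is low, and LXR, which switches on sterol export when sterol is high.

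The label of the cells was checked against marker genes. A probe set was called above background on an array when it exceeded a background reference taken from 83 probe sets for odorant, pheromone and taste receptors (their 95th percentile), which lay at 66.7 to 76.1 on the 4 extract arrays. Of the 13 conventional DC markers, 12 had a probe set and 11 were above the reference on at least 2 extract arrays. *Itgax*, which encodes CD11c, gave signals of 19031 and 18834 at 4 h, then 15329 and 14431 at 12 h, and *H2-Ab1*, an MHC class II chain, gave 44123 and 40315 at 4 h, then 38422 and 38354 at 12 h. *Flt3* (96.4 and 81.6 at 4 h, then 136 and 103 at 12 h) and *Cd209a* (127 and 104 at 4 h, then 48 and 143 at 12 h) lay little above the reference or on both sides of it, and *Xcr1* lay under it on all 4 extract arrays. Macrophage and monocyte markers were present as well, 10 of 11 with a probe set, among them *Csf1r* (36873 and 33146 at 4 h, then 34711 and 37428 at 12 h). Of 7 B cell markers with a probe set, 1 was above the reference on 2 extract arrays. Of 8 T and NK cell markers with a probe set, 2 were above it on at least 2 extract arrays, while *Cd3d*, *Cd3e* and *Cd3g* were under it on all 4. So were 5 of 7 plasmacytoid DC markers and 1 of 5 eosinophil markers above it on at least 2. The trimmed mean of every array was 500, the 3′ to 5′ signal ratio of *Gapdh* lay at 0.76 and 0.70 at 4 h and 0.68 and 0.67 at 12 h under extract, and the actin ratio at 1.18 to 1.26 over all 8 arrays. The part of this fall in the *Gapdh* ratio in the results below was not tested.

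Between 4 h and 12 h of extract, 698 of 45037 probe sets rose (1.55%) and 591 fell (1.31%), at an adjusted p under 0.05 from limma fitted on the log2 signals of all 8 arrays. They covered 894 genes, and 146 of them carried no single gene symbol. Of the calls, 178 rises and 165 falls held whichever of the 8 arrays was left out. With 1 probe set per gene (the brightest), 11375 genes were above the reference on at least 2 extract arrays. Such genes are called measured here, and 391 of them rose (3.44%) and 383 fell (3.37%), with a median log2 difference of -0.03. The counts below are read against these shares. The gene lists were chosen with earlier results of these data known, so a count beside these shares is a description and not a test. The first value in parentheses after a gene's signals is its log2 difference, 12 h minus 4 h, under extract. Cell cycle genes and the enzymes of cholesterol and fatty acid synthesis were lower at 12 h, while chemokines, their receptors, cytokines, NF-κB regulators and matrix proteases were among the genes that were higher.

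The number of calls depended on how the spread was modelled. With the spread moderated without its dependence on signal, 0 probe sets passed (smallest adjusted p = 0.0912, 4462 at an unadjusted p under 0.05). With each array centred on its median, 334 rose and 379 fell, with only the 4 extract arrays 411 and 300, and with 1 array left out between 223 and 577 rose and between 235 and 512 fell.

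**Figure D1:**
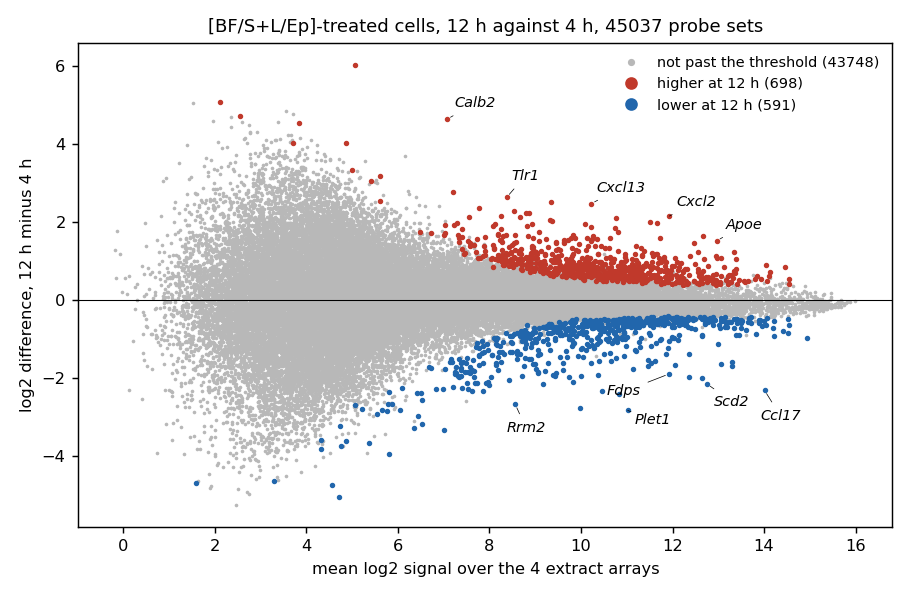
Difference between 12 h and 4 h of [BF/S+L/Ep] (vertical axis, log2) against the mean log2 signal of the 4 extract arrays (horizontal axis), with 1 point for each of 45037 probe sets. Red points (698) rose, blue points (591) fell and grey points did not pass the limma threshold. The grey cloud widens to the left, where signals are dim, and the named genes lie outside it.

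Genes of the cell cycle and DNA replication were lower at 12 h than at 4 h. Of 53 measured members of this list, 31 fell, 0 rose and 22 did not pass, and the median log2 difference was -1.0. In 16 of them the fall held whichever array was left out. The count was 19 without replicate 1 of the 4 h extract arrays and 21 to 31 with another array left out.

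Among the genes of DNA replication, *Rrm2*, a subunit of the ribonucleotide reductase that makes deoxynucleotides, gave signals of 933 and 986 at 4 h, then 135 and 166 at 12 h. Both 12 h arrays lay far below both 4 h arrays (log2 difference -2.68, standard error 0.19, adjusted p = 6.46e-06). *Top2a*, the topoisomerase that untangles replicated DNA, gave 1199.6 and 1051 at 4 h, then 318 and 317 at 12 h. Here too the times did not overlap (-1.82, standard error 0.15, adjusted p = 2.1e-05). *Pcna*, the sliding clamp of DNA polymerase, gave 14049 and 12678 at 4 h, then 8805 and 8864 at 12 h, a smaller fall (-0.60, standard error 0.11, adjusted p = 0.00789) that was lost without either 12 h extract array or replicate 1 of the 4 h arrays. *Mcm7*, a subunit of the replicative helicase, fell as well, with signals of 2472 and 2329.6 at 4 h, then 1415 and 1377 at 12 h (log2 difference -0.78, standard error 0.12, adjusted p = 0.00367).

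Genes of mitosis and its cyclins fell too. *Cdc20*, an activator of the anaphase-promoting complex, gave signals of 1774 and 1591 at 4 h, then 444 and 414 at 12 h (-1.97, standard error 0.14, adjusted p = 6.46e-06). *Ube2c*, the ubiquitin-conjugating enzyme of that complex, gave 2131 and 1888 at 4 h, then 516 and 526 at 12 h (-1.94, standard error 0.15, adjusted p = 1.2e-05). For *Ccnb2*, which encodes cyclin B2, the signals were 1335 and 1388 at 4 h, then 334 and 373 at 12 h (-1.95, standard error 0.15, adjusted p = 1.67e-05). In each of these the higher 12 h array lay well under the lower 4 h array. *Stmn1*, a protein that destabilizes microtubules, gave 4459.5 and 3916 at 4 h, then 661 and 923 at 12 h (-2.42, standard error 0.15, adjusted p = 3.13e-06), the steepest fall of the list after *Rrm2*. *Birc5*, the survivin subunit of the chromosomal passenger complex, *Cenpa*, the histone of the centromere, *Cdk1*, the kinase that drives entry into mitosis, and *Mki67*, which encodes the proliferation antigen Ki-67, fell by 1.84, 1.37, 1.28 and 0.87 on the log2 scale. In DMSO the same list had 26 falls and 0 rises, with a median of -0.94.

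Cell cycle genes that peak in G2 and M commonly carry a CHR element and CCAAT boxes near the start site. In the RefSeq promoters used here (300 bases around each start site, GRCm38.p6), the letters TTTGAA of the CHR stood on either strand in 14 of the 25 fallen cell cycle genes that had a promoter (56%), against 18.1% of all 27025 promoters and 22.5% of those of all measured genes that fell. CCAAT stood in 22 (88%), against 37.9% and 54%, and both in 14 (56%), against 7.12% of all promoters. These shares describe letters and not binding. The promoters of 3 genes with small p are shown, chosen among the 14 that held both. TTTGAA and CCAAT, or their reverse complements, are in capitals. They lie at chr4:118437294-118437593 on the minus strand, chr2:164769679-164769978 on the plus strand and chr9:70421505-70421804 on the minus strand.
Cdc20: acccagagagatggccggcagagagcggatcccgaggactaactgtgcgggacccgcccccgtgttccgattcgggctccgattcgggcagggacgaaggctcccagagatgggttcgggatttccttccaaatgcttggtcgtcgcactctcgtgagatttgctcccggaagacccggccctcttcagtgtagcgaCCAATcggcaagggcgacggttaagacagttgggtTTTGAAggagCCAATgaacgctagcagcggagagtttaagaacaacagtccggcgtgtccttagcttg
Ube2c: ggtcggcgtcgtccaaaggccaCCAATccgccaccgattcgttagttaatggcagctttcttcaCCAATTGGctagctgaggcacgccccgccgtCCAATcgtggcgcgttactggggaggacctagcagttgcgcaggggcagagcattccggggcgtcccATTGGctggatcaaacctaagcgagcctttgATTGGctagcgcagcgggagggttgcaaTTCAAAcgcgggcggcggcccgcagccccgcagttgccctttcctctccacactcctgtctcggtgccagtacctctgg
Ccnb2: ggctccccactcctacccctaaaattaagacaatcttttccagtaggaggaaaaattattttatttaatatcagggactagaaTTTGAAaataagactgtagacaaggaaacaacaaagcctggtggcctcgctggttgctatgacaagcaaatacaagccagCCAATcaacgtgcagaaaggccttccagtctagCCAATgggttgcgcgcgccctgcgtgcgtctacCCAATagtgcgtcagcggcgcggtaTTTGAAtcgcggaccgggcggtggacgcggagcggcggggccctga

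Enzymes of cholesterol and fatty acid synthesis were lower at 12 h as well. Of 32 measured members, 25 fell, 1 rose and 6 did not pass, with a median log2 difference of -1.07. Of the falls, 16 held whichever array was left out, and 18 to 24 passed with 1 array left out. In DMSO 25 fell, with a median of -1.29.

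The falls ran along the pathway from its first steps. *Hmgcs1*, the HMG-CoA synthase at the head of the mevalonate pathway, gave signals of 18566 and 16662 at 4 h, then 5977 and 5743 at 12 h. Both 12 h arrays lay far below both 4 h arrays (-1.59, standard error 0.10, adjusted p = 3.35e-06), and all 5 of its measured probe sets fell. *Fdps*, which makes farnesyl diphosphate, gave 7447 and 7502 at 4 h, then 1852 and 2161 at 12 h (-1.90, standard error 0.12, adjusted p = 3.13e-06). *Fdft1*, the squalene synthase, gave 5594 and 5262 at 4 h, then 1837 and 1806 at 12 h (-1.57, standard error 0.12, adjusted p = 8.44e-06). *Sqle*, the squalene epoxidase that is a control point of the pathway, gave 4235 and 4054 at 4 h, then 1204 and 1206 at 12 h, with the pair of 12 h arrays nearly identical (-1.78, standard error 0.11, adjusted p = 3.13e-06). The late enzymes *Lss*, *Cyp51*, *Msmo1*, *Nsdhl*, *Sc5d* and *Dhcr7* fell as well, with log2 differences of -1.80, -1.54, -1.39, -1.22, -1.18 and -1.87.

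Of the fatty acid enzymes, *Scd2*, a desaturase that makes monounsaturated fatty acids, gave signals of 14513 and 14768 at 4 h, then 3399.9 and 3158 at 12 h (-2.16, standard error 0.11, adjusted p = 7.64e-07). The times were far apart, and all 3 of its measured probe sets fell. *Fasn*, the fatty acid synthase, gave 2044 and 2134 at 4 h, then 721 and 642 at 12 h (-1.62, standard error 0.13, adjusted p = 1.47e-05). The regulator gene *Srebf2*, which encodes SREBP-2 itself, gave 2149 and 2152 at 4 h, then 1341 and 1182 at 12 h, and *Insig1*, which holds SREBP in the endoplasmic reticulum, gave 2657 and 3367 at 4 h, then 1831 and 1867 at 12 h. Both fell (log2 difference -0.77, standard error 0.14, adjusted p = 0.00923 for *Srebf2* and -0.69, standard error 0.15, adjusted p = 0.0221 for *Insig1*), though each call was lost without some of the extract arrays. The 1 rise of the list was *Mylip*, the ubiquitin ligase that degrades the LDL receptor and an LXR target (0.57, adjusted p = 0.0296), a call lost whichever extract array was left out.

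Of the 18 fallen genes of this list that had a promoter, 1 (5.56%) held the sterol element letters TCACNCCAC and 15 (83.3%) held CCAAT, against 1.22% and 37.9% of all promoters and 1.27% and 54% of those of all measured genes that fell. The promoter with the sterol letters is that of *Hmgcs1*, at chr13:119690101-119690400 on the plus strand, with those letters in capitals.
Hmgcs1: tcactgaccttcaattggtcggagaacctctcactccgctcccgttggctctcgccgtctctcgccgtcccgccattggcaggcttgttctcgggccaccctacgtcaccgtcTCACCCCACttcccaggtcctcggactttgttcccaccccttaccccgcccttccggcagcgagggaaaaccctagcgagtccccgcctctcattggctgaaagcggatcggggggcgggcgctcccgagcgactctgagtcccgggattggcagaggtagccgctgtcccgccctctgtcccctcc

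Sterol export and lipid handling genes moved the other way in part. Of 20 measured members, 4 rose, 0 fell and 16 did not pass, with a median of 0.07. *Abca1*, the transporter that loads cholesterol onto lipoproteins, gave signals of 6402 and 7011 at 4 h, then 12360.3 and 11729 at 12 h (0.85, standard error 0.10, adjusted p = 0.000435). *Apoe*, a lipoprotein that carries sterol out of macrophages, gave 4454 and 5029.6 at 4 h, then 12611 and 14672 at 12 h (1.52, standard error 0.12, adjusted p = 1.96e-05). *Gpnmb*, a membrane glycoprotein of lipid-laden macrophages, gave 1323 and 1594 at 4 h, then 3577 and 4056 at 12 h (1.39, standard error 0.12, adjusted p = 4.34e-05). In all 3 the lower 12 h array was above the higher 4 h array, and the calls held whichever array was left out. The remaining rise was *Fabp4*, a fatty acid carrier (1.21, adjusted p = 0.00294), which was lost without replicate 1 of the 12 h extract arrays.

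**Figure D2:**
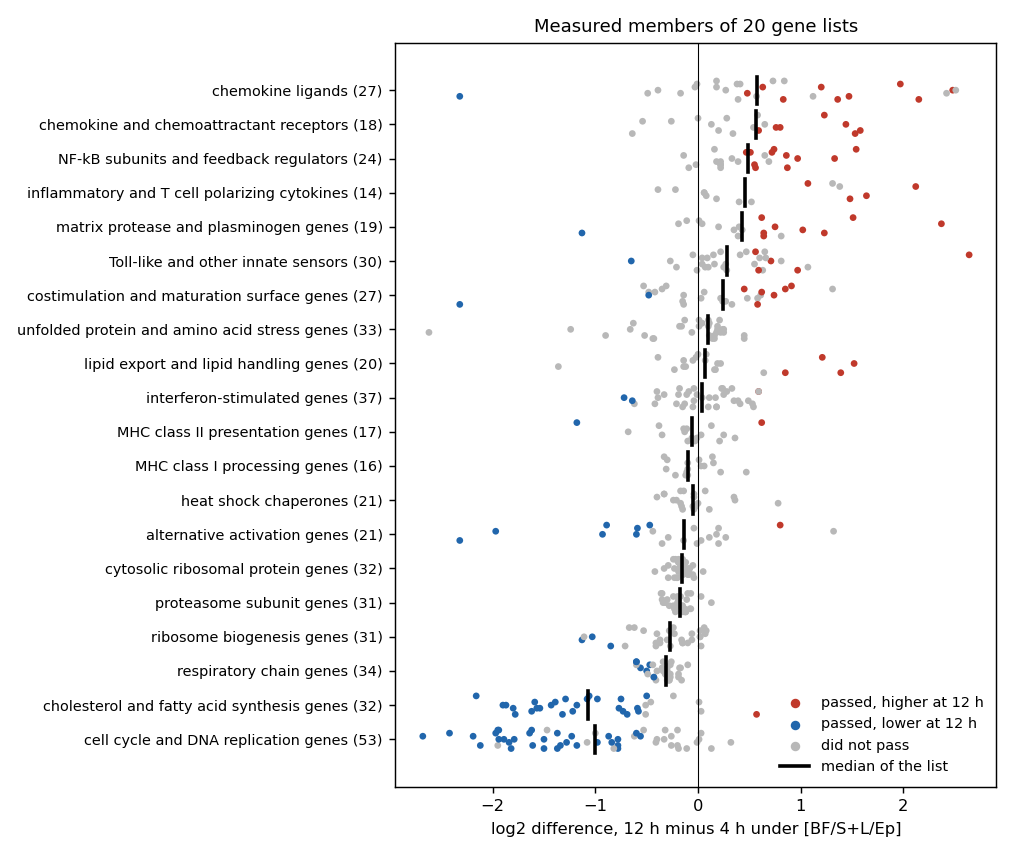
Measured members of 20 gene lists (rows, with the number of measured members) by their log2 difference between 12 h and 4 h of [BF/S+L/Ep] (horizontal axis). Each point is the brightest probe set of a gene, red for rises, blue for falls and grey for genes that did not pass, and the black bars are list medians. The medians run from 0.57 for chemokine ligands to -1.07 for cholesterol and fatty acid synthesis genes.

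Chemokine ligands rose more often than they fell. Of 27 measured members, 9 rose, 1 fell and 17 did not pass, with a median log2 difference of 0.57, against 3.44% rises and a median of -0.03 over all measured genes. Of the rises 6 held whichever array was left out, the lowest count being 6 without either 12 h extract array. In DMSO 11 rose and 1 fell, with a median of 0.52.

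Ligands that attract neutrophils were among the rises. *Cxcl2* gave signals of 1912 and 1788 at 4 h, then 9162 and 7399.5 at 12 h. Both 12 h arrays lay far above both 4 h arrays (2.15, standard error 0.12, adjusted p = 1.57e-06). *Cxcl3* gave 3419.6 and 3378 at 4 h, then 10316 and 8535 at 12 h (1.47, standard error 0.14, adjusted p = 5.48e-05). *Ppbp*, whose product is cleaved to the CXCL7 chemokine and is best known from platelets, gave 1694 and 1592 at 4 h, then 6542 and 6306 at 12 h (1.97, standard error 0.16, adjusted p = 2e-05). *Cxcl13*, the ligand that draws B cells into follicles, gave 547 and 473 at 4 h, then 3072 and 2600.1 at 12 h (2.48, standard error 0.14, adjusted p = 1.57e-06), and both of its measured probe sets rose. *Cxcl10*, an interferon-inducible ligand of CXCR3, gave 320.3 and 300.2 at 4 h, then 873 and 724 at 12 h (1.36, standard error 0.19, adjusted p = 0.00142).

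The 1 ligand that fell was *Ccl17*, which attracts CCR4-bearing T cells and is a product of mature and alternatively activated DCs. Its signals were 39808 and 34339 at 4 h, then 7246 and 7533 at 12 h, and both 12 h arrays lay far below both 4 h arrays (-2.32, standard error 0.11, adjusted p = 7.64e-07).

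*Ppbp* and *Pf4* are also platelet markers. The summed signal of the 6 measured platelet markers was 18820 and 14430 at 4 h and 29794 and 28177 at 12 h under extract. Of the 6, *Ppbp* and *Pf4* rose and the other 4 did not pass. The call of *Pf4* was lost in 7 of the 8 fits with 1 array left out and with median centring, and that of *Ppbp* in 0 of these. *Gp9* gave signals of 8.2 and 88.3 at 4 h, then 84.6 and 54.8 at 12 h and *Gp6* gave 108 and 50.9 at 4 h, then 116 and 148 at 12 h, on both sides of the reference. Their part in the rise of *Ppbp* was not tested.

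Of the 8 risen chemokine ligands that had a promoter, 3 (37.5%) held the κB letters GGNNTTTCC on either strand, and so did 3 (37.5%) of the 8 risen NF-κB regulators with a promoter, against 5.72% of all promoters and 11.3% of the promoters of all measured genes that rose. The promoters of 2 such ligands and 2 such regulators are shown, with the κB letters of either strand in capitals. They lie at chr5:90903649-90903948 and chr5:90785851-90786150 on the plus strand, and at chr10:19015361-19015660 and chr7:19822706-19823005 on the minus strand. The call of *Bcl3* was lost without either 12 h extract array or replicate 1 of the 4 h extract arrays. It was also lost with median centring and with only the 4 extract arrays.
Cxcl2: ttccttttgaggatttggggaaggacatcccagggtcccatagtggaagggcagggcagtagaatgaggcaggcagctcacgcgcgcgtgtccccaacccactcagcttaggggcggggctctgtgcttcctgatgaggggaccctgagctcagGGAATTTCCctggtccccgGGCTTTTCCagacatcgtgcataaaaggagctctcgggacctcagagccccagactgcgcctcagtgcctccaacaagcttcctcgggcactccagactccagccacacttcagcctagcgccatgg
Cxcl3: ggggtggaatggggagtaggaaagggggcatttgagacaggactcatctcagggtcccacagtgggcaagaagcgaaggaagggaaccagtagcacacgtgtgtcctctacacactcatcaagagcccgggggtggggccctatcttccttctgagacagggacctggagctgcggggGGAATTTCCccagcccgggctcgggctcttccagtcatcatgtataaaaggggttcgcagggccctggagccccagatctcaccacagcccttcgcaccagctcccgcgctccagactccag
Tnfaip3: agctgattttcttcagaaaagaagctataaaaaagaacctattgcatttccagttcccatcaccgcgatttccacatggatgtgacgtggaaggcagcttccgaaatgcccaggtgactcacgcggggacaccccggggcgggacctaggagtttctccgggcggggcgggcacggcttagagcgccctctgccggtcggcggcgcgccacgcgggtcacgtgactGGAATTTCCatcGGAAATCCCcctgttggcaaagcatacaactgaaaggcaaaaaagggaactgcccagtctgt
Bcl3: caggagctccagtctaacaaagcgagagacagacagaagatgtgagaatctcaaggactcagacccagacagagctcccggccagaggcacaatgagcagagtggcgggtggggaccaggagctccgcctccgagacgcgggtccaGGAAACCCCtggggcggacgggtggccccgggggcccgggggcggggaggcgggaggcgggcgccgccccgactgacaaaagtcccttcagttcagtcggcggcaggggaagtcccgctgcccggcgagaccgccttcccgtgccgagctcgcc

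Receptors for chemokines and other chemoattractants rose in 7 of 18 measured members and fell in 0, with a median of 0.56. In 3 of the 7 the rise held whichever array was left out, and 4 passed without either 12 h extract array or without replicate 2 of the 4 h extract arrays. *Ccrl2*, a decoy-like receptor that presents chemerin, gave signals of 875 and 948 at 4 h, then 2707 and 2758 at 12 h (1.58, standard error 0.12, adjusted p = 8.44e-06). *Cx3cr1*, the fractalkine receptor, gave 591 and 605 at 4 h, then 1679 and 1576 at 12 h (1.44, standard error 0.13, adjusted p = 5.8e-05). *Fpr2*, a receptor for formylated and other chemotactic peptides, gave 6831 and 6836 at 4 h, then 15912 and 16152 at 12 h (1.23, standard error 0.10, adjusted p = 1.67e-05). In each of the 3, both 12 h arrays were far above both 4 h arrays. *Ccr7*, the receptor that guides mature DCs to lymph nodes, gave 13249 and 16456 at 4 h, then 20012 and 24188 at 12 h, and its difference did not pass (0.58, standard error 0.15, adjusted p = 0.064). In DMSO 7 of the list rose and 0 fell, with a median of 0.62.

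Cytokine genes rose in 4 of 14 measured members and fell in 0, with a median of 0.46 (in DMSO 4, 0 and 0.36). *Il12b*, the p40 subunit of IL-12 and IL-23 that steers T cells to type 1 and type 17 responses, gave signals of 646 and 737 at 4 h, then 2190.2 and 2123 at 12 h. The times were far apart (1.64, standard error 0.13, adjusted p = 1.98e-05), and both measured probe sets rose. *Il1b*, the inflammatory cytokine made as an inactive precursor, gave 6073 and 5750.3 at 4 h, then 13274 and 11556 at 12 h (1.07, standard error 0.11, adjusted p = 0.000101). *Il1a* gave 162 and 237 at 4 h, then 821 and 882 at 12 h (2.12, standard error 0.32, adjusted p = 0.00278). These 3 calls held whichever array was left out. *Il6* rose as well (1.48, adjusted p = 0.0339), a call that did not, and *Tnf* gave 292 and 155 at 4 h, then 655 and 466 at 12 h and did not pass (1.38, standard error 0.39, adjusted p = 0.0889). *Il1r2*, the decoy receptor that soaks up IL-1, fell, from signals of 1869 and 1905 to 469.7 and 416 (log2 difference -2.09, standard error 0.20, adjusted p = 7.31e-05).

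NF-κB subunits and the regulators that NF-κB itself switches on rose in 11 of 24 measured members and fell in 0, with a median of 0.49. In 5 of them the rise held whichever array was left out. Without replicate 2 of the 12 h extract arrays 5 passed, 6 without replicate 1 of either extract time, and 5 with each array centred on its median. *Nfkbiz*, which encodes the nuclear regulator IκBζ that licenses late inflammatory genes, gave signals of 445 and 483 at 4 h, then 1476 and 1238 at 12 h (1.54, standard error 0.15, adjusted p = 0.000101). *Ikbke*, the kinase IKKε, gave 1506 and 1681 at 4 h, then 4212 and 3787 at 12 h (1.33, standard error 0.11, adjusted p = 2.36e-05). *Relb*, the subunit of the alternative pathway needed by DCs, gave 2458 and 2837 at 4 h, then 5057 and 5306 at 12 h (0.97, standard error 0.13, adjusted p = 0.00134). Here the 2 times were well apart on every array. The inhibitors *Tnfaip3* (A20) and *Nfkbie* (IκBε) rose by 0.86 and 0.72 on the log2 scale (adjusted p = 0.00104 and 0.0013). In DMSO 7 of the list rose and 0 fell, with a median of 0.42.

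Among Toll-like and other innate sensors, 5 of 30 measured members rose and 1 fell, with a median of 0.28. The steepest was *Tlr1*, the partner of TLR2 in the sensing of bacterial lipopeptides, with signals of 124 and 144 at 4 h, then 897 and 773 at 12 h (2.64, standard error 0.22, adjusted p = 2e-05). Both 12 h arrays lay far above both 4 h arrays, a 6.24-fold higher level, and all 4 were above the reference. *Irak2*, a kinase of Toll-like receptor signalling, gave 940.5 and 984 at 4 h, then 1734 and 2058 at 12 h (0.97, standard error 0.14, adjusted p = 0.00156). *Tlr2* gave 5427 and 5568 at 4 h, then 8467 and 8119.6 at 12 h (0.59, standard error 0.10, adjusted p = 0.00409), a call lost without replicate 1 of the 12 h extract arrays. The 1 fall was *Mavs*, the mitochondrial adaptor of RNA sensing, with 1458 and 1443 at 4 h, then 870.4 and 983 at 12 h (-0.65, standard error 0.14, adjusted p = 0.0239), and the call was lost whichever extract array was left out. The count of rises was 2 without replicate 1 of the 12 h extract arrays, 3 without the other 12 h array or replicate 1 of the 4 h arrays, and 2 with median centring.

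Of the immediate early genes and feedback regulators of MAP kinase signalling, 7 of 41 rose and 2 fell, with a median of 0.15. *Fos* gave signals of 1278 and 1583 at 4 h, then 2917 and 2853 at 12 h (1.02, standard error 0.15, adjusted p = 0.00194) and *Egr2* gave 2535 and 2234 at 4 h, then 4892 and 4266 at 12 h (0.94, standard error 0.12, adjusted p = 0.000768). *Rgs1*, which damps chemokine receptor signalling, gave 3243 and 3026 at 4 h, then 6505 and 5859 at 12 h (0.98, standard error 0.10, adjusted p = 0.000123). All 3 calls held whichever array was left out. The falls were *Klf2* and *Klf4*, factors of quiescent and monocytic cells, at -0.67 and -0.60, and both were lost without replicate 1 of either extract time or replicate 2 of the 4 h arrays. In DMSO 5 rose and 2 fell.

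Interferon-stimulated genes passed in few members, with 1 rise, 2 falls and 34 of 37 measured members not passing, at a median of 0.04. The rise was *Irf1* (0.59, adjusted p = 0.0109) and the falls were *Rsad2* (-0.72, 0.00844) and *Ifi27l2a* (-0.64, 0.023), antiviral effectors. All 3 calls were lost without either 12 h extract array or without replicate 1 of the 4 h extract arrays. The same list had 1 rise and 4 falls in DMSO, with a median of -0.10.

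The list of matrix proteases, plasminogen activators and protease inhibitors rose in 8 of 19 measured members and fell in 1, with a median of 0.43. Of the rises 6 held whichever array was left out, the inhibitors *Serpinb9* and *Slpi* among them. *Mmp13*, a collagenase, gave signals of 708 and 710.4 at 4 h, then 2177 and 1875 at 12 h (1.51, standard error 0.14, adjusted p = 6.96e-05). *Mmp8*, the neutrophil collagenase, gave 3608 and 3753 at 4 h, then 5975 and 6420.3 at 12 h (0.75, standard error 0.10, adjusted p = 0.00104). *Mmp9*, the gelatinase B, gave 71.2 and 129 at 4 h, then 512 and 481 at 12 h (2.37, standard error 0.30, adjusted p = 0.000771), with 1 of its 4 h signals under the reference of its array. In all 3 the 12 h arrays were both higher than the 4 h arrays. The inhibitors *Serpinb9*, which blocks granzyme B, and *Slpi*, which blocks neutrophil elastase, rose by 1.23 and 1.02 on the log2 scale (adjusted p = 0.000103 and 0.000509). Another matrix metalloproteinase, *Mmp19*, fell, with 1379 and 1298 at 4 h, then 596 and 624 at 12 h (-1.13, standard error 0.13, adjusted p = 0.000378). In DMSO 5 of the list rose and 1 fell, with a median of 0.37.

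*Mmp8* and *Csf3r*, the G-CSF receptor, are also neutrophil markers, and both rose. *Csf3r* gave signals of 130.2 and 218 at 4 h, then 933 and 721 at 12 h (2.28, standard error 0.26, adjusted p = 0.000337). The summed signal of the 7 measured neutrophil markers was 7803 and 7150 at 4 h and 9948 and 9936 at 12 h. The markers *S100a8* (2978 and 2251 at 4 h, then 2295 and 1986 at 12 h) and *S100a9* (708 and 589 at 4 h, then 426 and 429.7 at 12 h) did not pass. *Elane*, *Prtn3* and *Cxcr2* lay under the reference on all 4 extract arrays.

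Adhesion and cytoskeleton genes changed in few members. Of 31 adhesion genes 3 rose and 1 fell, with a median of -0.02. *Itga4*, the integrin chain of VLA-4, gave signals of 1941 and 1932 at 4 h, then 6106 and 5649 at 12 h, with both 12 h arrays far above both 4 h arrays (1.60, standard error 0.13, adjusted p = 2e-05), and it was the 1 rise of the list that held whichever array was left out (1 rose without replicate 1 of the 12 h extract arrays or with median centring, and 0 fell whichever extract array was left out). Of 34 cytoskeleton genes 3 rose and 2 fell, with a median of -0.10, and 1 fell without any 1 array other than replicate 2 of the 4 h extract arrays. *Fscn1*, the actin-bundling protein of mature DC dendrites, gave 18235 and 15537 at 4 h, then 29403 and 31441 at 12 h (0.85, standard error 0.12, adjusted p = 0.0012). *Dnah2*, an axonemal dynein heavy chain, gave 931 and 883 at 4 h, then 2913 and 3609 at 12 h (1.84, standard error 0.15, adjusted p = 1.68e-05), a 3.58-fold higher level at 12 h.

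Costimulatory ligands and other surface genes of maturation rose in 6 of 27 measured members and fell in 2. The median was 0.24 (in DMSO 7 rose and 1 fell, with a median of 0.29). *Cd83*, a maturation marker, gave signals of 8519 and 7655 at 4 h, then 12843 and 14146 at 12 h (0.74, standard error 0.12, adjusted p = 0.00357). *Cd40*, the receptor for T cell help, gave 591 and 732 at 4 h, then 1139 and 1331 at 12 h (0.91, standard error 0.16, adjusted p = 0.00918), and all 3 of its measured probe sets rose. *Icam1*, a ligand for T cell integrins, gave 5524 and 5325 at 4 h, then 8471 and 7731 at 12 h (0.58, standard error 0.10, adjusted p = 0.00556). In each the times did not overlap, but *Cd83* and *Cd40* were lost without replicate 2 of the 12 h extract arrays, where 2 rises of the list passed, and *Icam1* without replicate 1. With each array centred on its median 1 of the 6 rises of the list passed. The 2 falls were *Ccl17*, listed here too, and *Tnfrsf9* (-0.48, adjusted p = 0.0436), a call lost in all 8 fits with 1 array left out.

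Antigen presentation genes passed in few members. Of 17 MHC class II genes 1 rose and 1 fell, with a median of -0.06, and of 16 class I genes 0 passed, with a median of -0.10. The fall was *H2-DMb2*, a chain of the H2-M molecule that loads peptide onto class II, with signals of 4809 and 4162 at 4 h, then 1841 and 2111 at 12 h (-1.18, standard error 0.11, adjusted p = 7.13e-05). Both 12 h arrays were far below both 4 h arrays. *Marchf1*, the ubiquitin ligase that removes class II from the surface, rose, with 1488 and 1296 at 4 h, then 2180.1 and 2094 at 12 h (0.62, standard error 0.12, adjusted p = 0.0121), a call lost without either 12 h extract array, replicate 2 of the 4 h arrays or with median centring.

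Genes of alternative activation, the state that IL-4 brings about, fell in 7 of 21 measured members and rose in 1. The median was -0.14 (in DMSO 3 fell and 1 rose, with a median of -0.11). In 4 of the 7 the fall held whichever array was left out (4 passed without either 12 h extract array or without replicate 1 of the 4 h arrays). Beside *Ccl17* these were 2 galactose-binding lectins and a ribonuclease. *Mgl2* (CD301b) gave signals of 9316 and 11763 at 4 h, then 2399.6 and 2988 at 12 h (-1.97, standard error 0.14, adjusted p = 6.75e-06). *Clec10a* (CD301a) gave 935 and 1163 at 4 h, then 571 and 553 at 12 h (-0.89, standard error 0.14, adjusted p = 0.00367). *Rnase2a*, a secreted ribonuclease, gave 9942 and 7744 at 4 h, then 4342 and 4916 at 12 h (-0.93, standard error 0.13, adjusted p = 0.00193). In all 3 both 12 h arrays were below both 4 h arrays. The 1 rise was the scavenger receptor *Msr1* (0.80, adjusted p = 0.00755), a call lost without replicate 2 of the 12 h extract arrays or replicate 1 of the 4 h arrays.

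Other lectins rose. *Clec4e* (Mincle), which senses mycobacterial glycolipid and dead cells, gave signals of 5136 and 5444 at 4 h, then 11808 and 11531 at 12 h (1.14, standard error 0.10, adjusted p = 2.6e-05), and *Clec4d*, its partner, gave 7495 and 7329.9 at 4 h, then 14731 and 16007 at 12 h (1.05, standard error 0.10, adjusted p = 4.78e-05). In both, the 12 h arrays were above the 4 h arrays with no overlap. Over the whole list of lectin, scavenger and Fc receptors, 6 of 31 rose and 4 fell, with a median of -0.01, and 2 fell without either 12 h extract array or replicate 1 of the 4 h arrays.

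Macrophage markers rose in 4 of 10 measured members and fell in 0, with a median of 0.37 (in DMSO 5, 0 and 0.50). *Adgre1*, which encodes F4/80, gave signals of 1158 and 1158 at 4 h, then 2789 and 2749.6 at 12 h (1.26, standard error 0.14, adjusted p = 0.000203), and it was the 1 call of the 4 that held whichever array was left out. The complement chains *C1qa* and *C1qb* and the co-receptor *Cd14* rose by 0.46, 0.58 and 0.71 on the log2 scale. Without replicate 1 of either extract time 2 of the 4 passed, and 1 without replicate 2 of the 12 h arrays or with median centring. The summed signal of the 10 was 88911 and 88060 at 4 h and 98610 and 105370 at 12 h, and that of the 11 conventional DC markers 139013 and 131516 at 4 h and 130143 and 133571 at 12 h. Of 2 measured T and NK cell markers 1 rose (*Cd8a*), a call lost in 6 of the 8 fits with 1 array left out. Plasmacytoid DC markers rose in 2 of 5 measured members and fell in 0 (in DMSO 0 and 0), and 0 rose without replicate 1 of the 12 h extract arrays. The 1 measured eosinophil marker, *Siglecf*, fell from signals of 2569 and 2714 to 1822 and 1629, a call lost in 3 such fits. The part of a change in cell makeup in the results above was not tested.

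Metabolic genes moved in both directions. Of 26 genes of glycolysis and the hypoxia response, 5 rose and 5 fell, with a median of 0.05. The rises were 2 without either 12 h extract array and 3 without either 4 h extract array, and the falls 2 without replicate 1 of the 12 h arrays. With median centring 2 rose and 3 fell. *Pfkp*, the platelet isoform of phosphofructokinase, gave signals of 6011 and 5759.9 at 4 h, then 2996 and 3011 at 12 h (-0.97, standard error 0.09, adjusted p = 8.51e-05). *Ldha*, which makes lactate, gave 15954 and 16746 at 4 h, then 9527 and 9696 at 12 h (-0.77, standard error 0.10, adjusted p = 0.000885). Both fell with no overlap, while *Pfkfb3*, whose product makes the allosteric activator of phosphofructokinase, gave 1834 and 2065 at 4 h, then 3605 and 3435 at 12 h and rose (0.85, standard error 0.11, adjusted p = 0.000748). The glucose transporter *Slc2a1* rose as well, by 0.70 on the log2 scale. These 4 calls held whichever array was left out. *Acod1*, the enzyme that makes the antimicrobial metabolite itaconate, gave 899 and 790.4 at 4 h, then 3804 and 3405 at 12 h (2.09, standard error 0.15, adjusted p = 7.71e-06), a 4.27-fold rise that held whichever array was left out. *Arg2*, a mitochondrial arginase, gave 1415 and 1671 at 4 h, then 3329 and 3667 at 12 h (1.18, standard error 0.12, adjusted p = 8.76e-05).

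Respiratory chain genes fell in 6 of 34 measured members and rose in 0, with a median of -0.31, and in DMSO 0 passed, with a median of -0.27. The 6 falls lay between -0.43 (*Sdhd*) and -0.60 (*Ndufa5* and *Ndufb8*) on the log2 scale. The count moved with single arrays: 0 passed without replicate 1 of either extract time, with median centring or with only the 4 extract arrays, 1 or 2 passed without any other single array but replicate 2 of the 4 h extract arrays, and 9 without that one. Genes of ribosome biogenesis fell in 3 of 31 members, among them *Fbl*, the methyltransferase fibrillarin of the nucleolus, with signals of 5094 and 4588 at 4 h, then 2271 and 2458 at 12 h (-1.03, standard error 0.11, adjusted p = 0.000178), and *Nop16*, with 2686 and 2596 at 4 h, then 1457 and 1480 at 12 h (-0.85, standard error 0.10, adjusted p = 0.000574). Both held whichever array was left out.

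Several lists had no member past the threshold, though single medians were off 0. They were cytosolic ribosomal proteins (0 of 32, median -0.16), proteasome subunits (0 of 31, -0.18), unfolded protein and amino acid stress genes (0 of 33, 0.10), heat shock chaperones (0 of 21, -0.05) and circadian clock genes (0 of 15, 0.02). Of the genes that NRF2 and antioxidant defence control, 1 of 27 rose and 2 fell, with 0 falls without either 12 h extract array, without replicate 1 of the 4 h extract arrays or with median centring. The rise was the mitochondrial superoxide dismutase *Sod2*, with signals of 8839 and 7439 at 4 h, then 14351 and 13857 at 12 h (0.80, standard error 0.11, adjusted p = 0.00116). Of 8 measured genes of the aryl hydrocarbon receptor, 1 fell (*Tiparp*, -0.64, standard error 0.11, adjusted p = 0.00608), a call lost without replicate 1 of either extract time. Among GM-CSF receptor, STAT and SOCS genes, 4 of 36 rose and 0 fell, and 2 rose without either 12 h extract array. One was *Stat4*, the factor through which IL-12 signals, with 520.5 and 496 at 4 h, then 1375 and 1713 at 12 h (1.59, standard error 0.17, adjusted p = 0.000189).

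**Figure D3:**
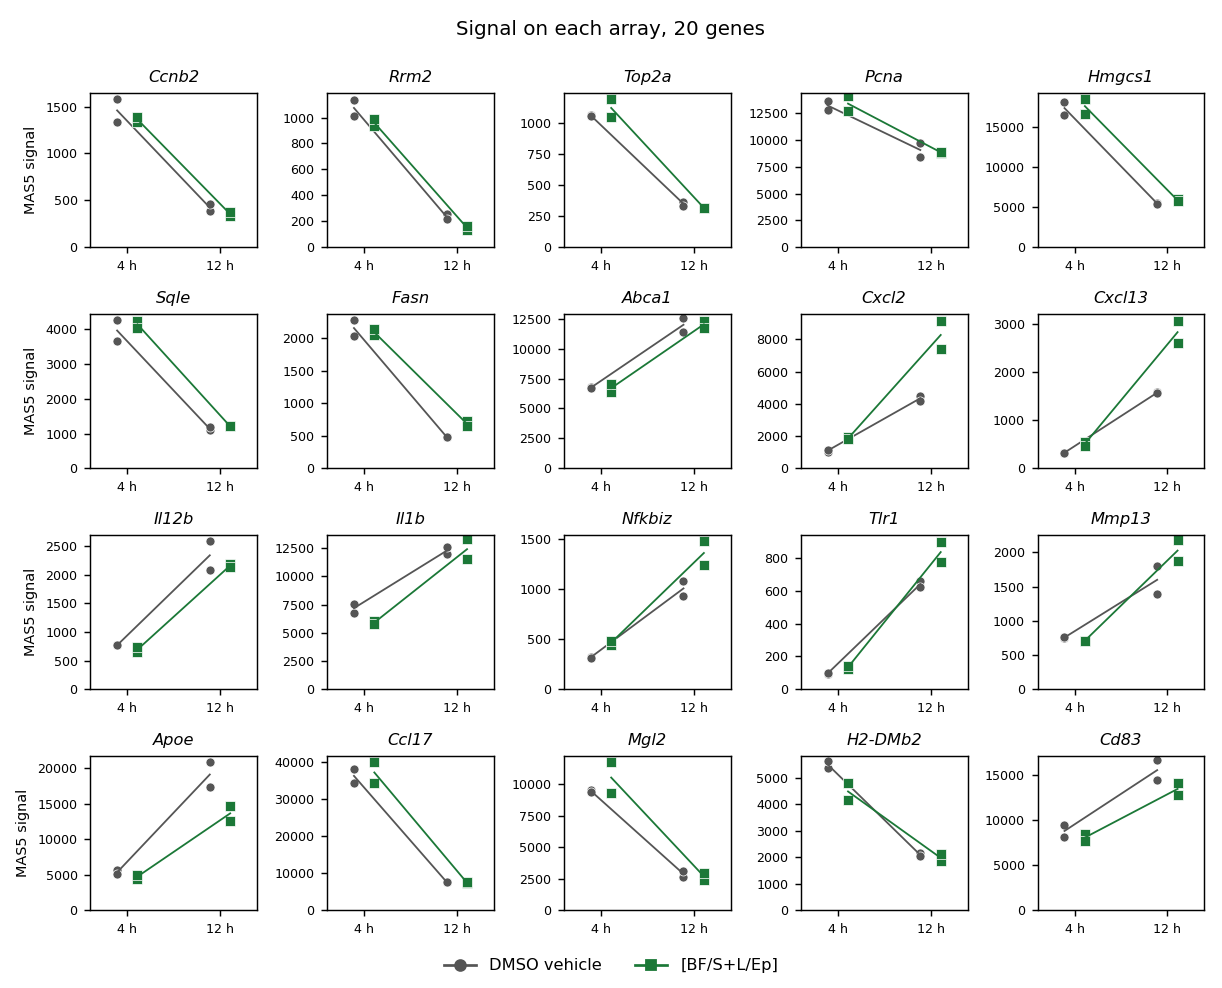
MAS5 signal (vertical axes, linear, from 0) on each of the 8 arrays at 4 h and 12 h for 20 genes, as grey circles for the DMSO vehicle and green squares for [BF/S+L/Ep]. Lines join the means of the 2 arrays. In each gene both extract arrays of one time lie above both of the other, and the vehicle arrays move in the same direction.

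A rule of size was applied as well, naming the 15 rises and the 15 falls with the largest fitted log2 difference. It took only calls with both arrays of the higher time above the reference and no overlap between the times. Many of the 30 named genes had a lower time under the reference, so that their fold is a bound. Of the 30, 13 held whichever array was left out, and among the falls these were only *Mapk13* and *Plet1*. Some calls were not seen at the gene's brightest probe set, as for *Wdfy3* (3.19 against 0.02 there) and *Ankzf1* (-4.74 against 0.11). One rise was *Bmp2*, a bone morphogenetic protein, with signals of 6.7 and 2.5 at 4 h, then 318 and 229 at 12 h, at least 3.82-fold higher against the reference (adjusted p = 0.00218), a call lost without replicate 1 of the 12 h extract arrays. Its 4 h signals were under the reference, so its place among the rises is not settled. *Calb2*, the calcium-binding protein calretinin, gave 22.6 and 32.3 at 4 h, then 606 and 755 at 12 h, at least 9.58-fold higher at 12 h (adjusted p = 4.24e-06), again with both 4 h signals under the reference. *Insm1*, a zinc finger repressor of neuroendocrine cells, gave 39.6 and 80.6 at 4 h, then 437 and 343 at 12 h (2.78, standard error 0.40, adjusted p = 0.0019). As the rule required, both 12 h arrays were above both 4 h arrays in each. Of the 15 falls, *Plet1*, a surface protein of epithelial progenitors and of some DCs, gave 5121 and 6021 at 4 h, then 806 and 750.5 at 12 h. It fell by 2.84 on the log2 scale, a 7.14-fold lower level at 12 h (adjusted p = 9.69e-07), and 2 of its 3 measured probe sets fell. *Nuf2*, a kinetochore subunit, gave 418 and 401 at 4 h, then 105 and 15.7 at 12 h and fell (-3.33, standard error 0.63, adjusted p = 0.0117), though 1 of its 12 h signals was under the reference. *Rad51ap1*, a DNA repair factor, gave 291 and 167 at 4 h, then 6 and 33.6 at 12 h, at least 2.92-fold lower (-3.96, standard error 0.85, adjusted p = 0.0239). Neither of the last 2 calls held whichever array was left out.

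Because these folds rest on dim signals, a second list was chosen after the values were seen. From the calls without overlap between the times, it took the 20 steepest rises and 20 steepest falls with both times above the reference. Of these, 17 rises and 18 falls held whichever array was left out. Beyond the genes described above, the rises included *Hp*, the hemoglobin-binding haptoglobin, with signals of 869.7 and 1125 at 4 h, then 3005 and 3611 at 12 h (1.74, standard error 0.15, adjusted p = 4.13e-05). *Adgre4*, an adhesion receptor of monocytes and DCs, gave 1068 and 1965 at 4 h, then 4880 and 6978 at 12 h (2.01, standard error 0.23, adjusted p = 0.000378). *F3*, the tissue factor that starts coagulation, gave 159 and 164 at 4 h, then 588 and 547 at 12 h (1.81, standard error 0.22, adjusted p = 0.000501). By the rule, both 12 h arrays exceeded both 4 h arrays in each of these 3. Among the falls, *Car4*, a membrane carbonic anhydrase, gave 1190 and 1216 at 4 h, then 266 and 278 at 12 h (-2.14, standard error 0.16, adjusted p = 8.6e-06). *Aacs*, which turns ketone bodies into lipid precursors, gave 1256 and 1348 at 4 h, then 354 and 333 at 12 h (-1.92, standard error 0.15, adjusted p = 1.2e-05). By the same rule the times did not overlap in both.

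Osteoclast markers, genes of the bone-resorbing cells that marrow precursors can also form, rose in 2 of 6 measured members and fell in 1, with a median of 0.25, and all 3 calls held whichever array was left out. The rises were *Mmp9*, given above, and *Acp5*, the tartrate-resistant acid phosphatase, with signals of 1790.5 and 2149 at 4 h, then 3567 and 4051 at 12 h (0.95, standard error 0.12, adjusted p = 0.000809). The fall was *Dcstamp*, a fusion receptor of osteoclasts and DCs, with 14312 and 14832 at 4 h, then 7770.5 and 7765 at 12 h (-0.91, standard error 0.09, adjusted p = 0.000126). In these 3 the times did not overlap.

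By fold alone, without a test, 345 of the 24900 probe sets that exceeded the reference on 2 or more extract arrays were at least 2-fold higher at 12 h (1.39%) and 330 at least 2-fold lower (1.33%), in the ratio of mean signals and in both ratios of same-numbered arrays. Of these, 160 and 175 also passed the limma threshold. At 4-fold the counts were 37 and 56. Without the background condition, 1783 and 1790 probe sets reached 2-fold.

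The same interval in DMSO gave 533 rises (1.18%) and 415 falls (0.921%) of 45037 probe sets (with each array centred on its median 215 rose and 290 fell, so that falls outnumbered rises), and over the measured genes 326 rises (2.87%) and 282 falls (2.48%), with a median of -0.03. Of the extract calls, 703 also passed in DMSO in the same direction, 0 in the opposite direction, and 586 did not pass in DMSO. The test of the difference between both time courses in limma called 0 of 45037 probe sets (0%, smallest adjusted p = 0.756, 1647 at an unadjusted p under 0.05), so no gene was shown to follow another course under extract than under vehicle. Of the extract calls, 150 had an unadjusted p under 0.05 for the difference. The 95% interval of the difference had a median half-width of 0.53 on the log2 scale over measured genes, and 1.66 at the 90th percentile. These widths are not adjusted for the number of probe sets. With 2 arrays per group, differences beyond their own half-width also failed the adjusted threshold, such as that of *Calb2* (2.69, half-width 0.94, adjusted p = 0.756 in limma). The 0 calls therefore do not show that the courses were alike.

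The 10 genes with the smallest unadjusted p for the difference between the courses are given as values, since all failed the adjustment. The difference, extract minus DMSO, was positive for *Mapk14*, *Calb2*, *Plet1* and *Mmp8*. It was negative for *Bahcc1*, *Ulk3*, *Gpt*, *Tgm2*, *Slc37a1* and *Pisd-ps3* (-2.97, -2.94, -4.35, -0.64, -2.49 and -2.80). At the brightest probe sets of *Mapk14*, *Gpt*, *Tgm2* and *Pisd-ps3* it was 0.21, 0.64, -0.47 and -0.00. *Mapk14*, the p38α kinase, gave signals of 489 and 490 at 4 h, then 1200.3 and 941 at 12 h under extract and 758 and 705 at 4 h, then 600.1 and 558 at 12 h under DMSO (difference of the log2 differences 1.46, adjusted p = 0.756), at 1 of its 5 measured probe sets. The extract arrays were higher at 12 h and the DMSO arrays lower. *Calb2* had DMSO signals of 135 and 115 at 4 h, then 498 and 472 at 12 h, a log2 difference of 1.96 against 4.65 under extract (adjusted p of the difference 0.756). *Plet1* had DMSO signals of 4414 and 4948 at 4 h, then 277 and 368 at 12 h, a log2 difference of -3.87 against -2.84 under extract, so that the extract arrays of 12 h lay above the DMSO arrays of 12 h. *Mmp8* had DMSO signals of 2609 and 2527 at 4 h, then 2937 and 2741 at 12 h, a log2 difference of 0.14 against 0.75 under extract (unadjusted p = 0.000878).

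Among the members of the lists, *Clec10a* had DMSO signals of 1332 and 1281 at 4 h, then 1099 and 1243 at 12 h, a log2 difference of -0.16 against -0.89 under extract (unadjusted p of the difference 0.00292). *Fbl* had DMSO signals of 4141 and 3613 at 4 h, then 2764 and 2935 at 12 h (unadjusted p = 0.00233) and *Fpr2* had 7008 and 6873 at 4 h, then 10886 and 12172 at 12 h (unadjusted p = 0.0032). In both, the DMSO arrays moved in the direction of the extract arrays by a smaller amount. *Fasn* had DMSO signals of 2031 and 2276 at 4 h, then 481 and 481 at 12 h, a log2 difference of -2.16 against -1.62 under extract (unadjusted p = 0.00955). *Mavs* had DMSO signals of 1483 and 1836 at 4 h, then 1471 and 1744 at 12 h (unadjusted p = 0.00891), with the times overlapping. The adjusted p was 1 for each of these 5.

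For the genes of the main lists, both courses are given side by side. The log2 differences under extract and DMSO were -2.68 and -2.20 for *Rrm2*, -1.59 and -1.67 for *Hmgcs1*, 2.15 and 1.99 for *Cxcl2*, 1.64 and 1.60 for *Il12b*, 1.54 and 1.66 for *Nfkbiz* and -2.32 and -2.25 for *Ccl17*. The unadjusted p of the difference between courses was 0.0918, 0.576, 0.361, 0.81, 0.619 and 0.638 in the same order.

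**Figure D4:**
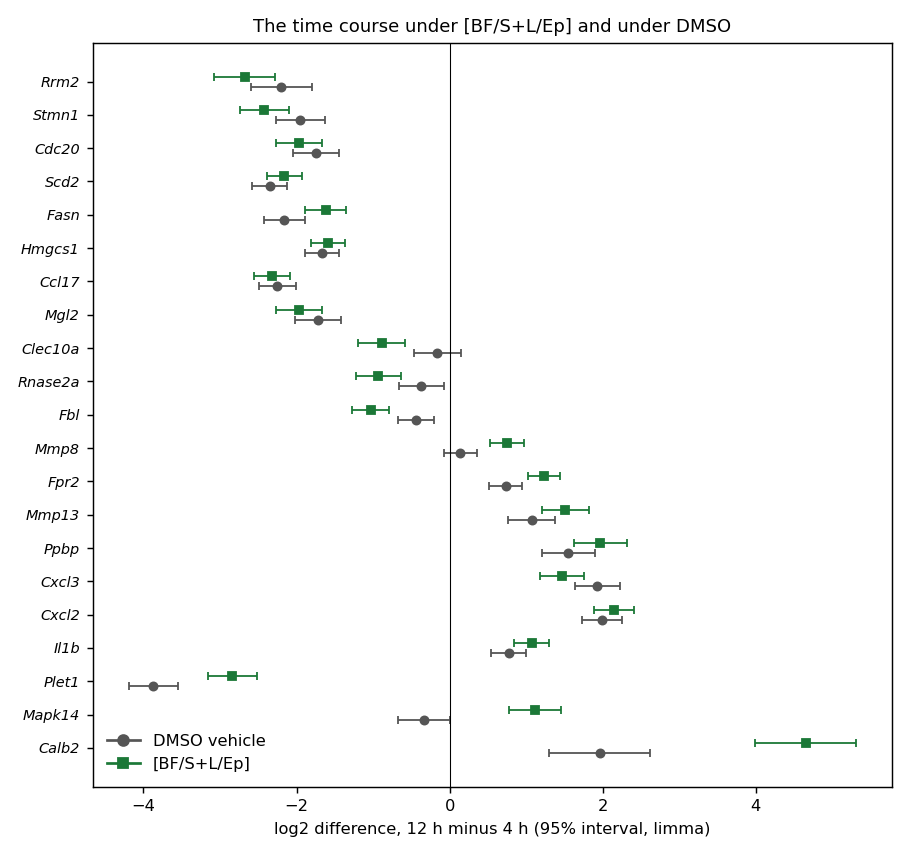
Log2 difference between 12 h and 4 h (horizontal axis, with 95% intervals from limma) of 21 genes under [BF/S+L/Ep] (green squares) and under DMSO (grey circles). The intervals of *Clec10a*, *Fbl*, *Mmp8*, *Fpr2*, *Plet1*, *Mapk14* and *Calb2* do not overlap between treatments and those of the other 14 genes overlap or touch, though no difference between the courses passed the adjusted threshold.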

How the data were processed

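Biotin-labelled cRNA made from the total RNA of each sample was hybridized to an Affymetrix Mouse Genome array. The authors summarized each probe set as a MAS5 signal, and the deposited table holds this intensity on a linear scale, with every array scaled to a trimmed mean of 500. Which MAS5 version was run: not given in the sources used here. Of 45101 probe sets, 64 Affymetrix controls were left out and 45037 were tested. Of these, 34945 had 1 gene symbol in the platform annotation (18193 genes, 34741 probe sets with an Entrez ID in the RefSeq table), 932 had several and 9160 had none.

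The signals were taken to log2, with no further normalization and no background filter, and fitted in limma 3.58.1 (R 4.3.3) with 1 mean per group over all 8 arrays and an intensity-dependent prior (4 residual and 8.833 prior degrees of freedom). Contrasts were 12 h minus 4 h under extract, the same under DMSO, and their difference, each with Benjamini-Hochberg adjustment over all probe sets at 0.05. A gene was represented by its brightest probe set, and counted as measured when above the background reference on at least 2 extract arrays. The scripts were tested on simulated data. The number of arrays, 2 per group, limits the precision. No test compared the signals of different probe sets. Such signals were set side by side to choose the brightest probe set, to set the background reference and to sum markers.

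Genes were named by rule: up to 6 members of each list with the smallest p, and markers. Also named were the 15 rises and 15 falls with the largest fitted difference whose times did not overlap. The 10 smallest p for the difference between the courses were named as well. A second rule of size, with both times above the reference, was added after the values were seen, as was naming some further list members and the promoters. The members and gene lists were chosen with earlier results of these data known. Alternatives were other filters, scalings and priors, an offset of 50 (statmod 1.5.0 for robust and block fits), only 4 arrays, and each array left out. Tables and figures were made in Python 3.11.15 with numpy 2.4.6, pandas 2.3.3 and matplotlib 3.10.9.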

Additional observations from a re-analysis of the deposited data

How the results depend on the processing

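Of the 698 rises and 591 falls under extract, 334 and 379 passed as counts with median centring, 411 and 300 with only the 4 extract arrays, 241 and 239 without the intensity trend among probe sets that exceeded the reference on 4 or more arrays (chosen after seeing the data), and 0 and 0 without the trend (4462 at an unadjusted p under 0.05). Leaving out 1 array gave 223 to 577 rises and 235 to 512 falls. The rises fell to 223 and 329 without replicates 1 and 2 of the 12 h extract arrays and to 357 without replicate 1 of the 4 h extract arrays, and the falls to 258, 276 and 235. Under DMSO, 215 rose with median centring, 167 rose and 149 fell in the added setting, 0 and 0 passed without the trend (4107 at an unadjusted p under 0.05), and with 1 array left out 161 to 571 rose and 123 to 442 fell, the lowest counts coming without single DMSO arrays. The difference between courses had 2 calls in the added setting (*Vcam1* and *Gpt*) and 0 to 1 with 1 array left out (*Igfbp4*, without replicate 2 of the 4 h extract arrays). The 2-fold counts were 1783 and 1790 with no filter, 701 and 581 by the ratio of means, 233 and 266 with all 4 ratios, 1319 and 901 at 1.5-fold, 78 and 126 at 3-fold, 37 and 56 at 4-fold, and 227 and 238 as genes. Deviations of same-numbered arrays from their group means were nearly uncorrelated (r from -0.0287 to 0.0579 over 26215 probe sets). This does not settle whether same-numbered arrays share a mouse or culture. With the replicate block 787 rose and 614 fell under extract, and 587 and 426 under DMSO. The causes of these shifts were not tested. Of 240 named probe sets past the threshold, 229 kept their call with quantile normalization, 173 with median centring and 133 to 209 with 1 array left out.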
